A study of Danio rerio with 23 samples.

Results

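The genes tm4sf4 (ENSDARG00000040747) and c2cd4a (ENSDARG00000061416) were followed in all 23 RNA-seq libraries of the series. They are 2 of the 31902 features counted in the endodermal libraries. They were chosen by name as endocrine-associated genes that are not transcription factors. Both stood among the genes that the study called higher with Neurod1 than in controls, and c2cd4a also among those higher with Neurod1 than with Ascl1a. They were thus selected on their measured fold changes in these 2 comparisons, which are therefore described here without a test.

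The first experiment tested what forced expression of related bHLH transcription factors does to endodermal cells of zebrafish embryos. All 16 libraries are dsred+ cells sorted at 52 hpf from the trunks of about 150 pooled Tg(sox17:dsred) embryos, heat-shocked at 38 and 48 hpf. Control embryos (n = 3) had no further transgene, and the others carried an hsp70l:eGFP-2A transgene for Ascl1a (n = 3), Neurod1 (n = 4), Neurod1 without its ultra-conserved element (Neurod1ΔUCE, n = 3) or Neurod1 without its evolutionary conserved domain (Neurod1ΔECD, n = 3). The hsp70l promoter acts in all tissues, so the factor was not restricted to the gut or to progenitors. The second experiment has 7 libraries of pax6b:GFP+ enteroendocrine cells (EECs) sorted from guts of about 200 pooled larvae at 4 dpf, from wild type (n = 3) and from neurod1ΔUCE-/- larvae (n = 4), in which the endogenous gene lacks the same element.

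Neurod1 and Ascl1a bind similar DNA motifs through their bHLH domains. Neurod1 acts in endocrine progenitors of gut and pancreas, and Ascl1a starts the secretory lineage of the zebrafish intestine, from which EECs and goblet cells arise. EECs are scattered epithelial cells that release peptide hormones from dense-core granules. tm4sf4 encodes a membrane protein of the L6 family, which resembles the tetraspanins, known from intestine and liver, and in mouse and zebrafish pancreas it has been linked to the specification of endocrine cells. c2cd4a encodes a protein with a C2 calcium-dependent domain, and its human counterpart lies at a locus associated with type 2 diabetes.

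Total counts ranged from 8364374 to 22301304 in the endodermal libraries and from 8626863 to 15894943 in the EEC libraries. Levels are CPM (counts scaled to library size) with TMM normalisation over all 23 libraries, and they are compared between groups within a gene, not between the genes, since no transcript lengths were used. The ascl1a reading frame reached 29.6 to 269 CPM where its transgene was present and no more than 2.78 CPM in the other endodermal libraries. The feature for the neurod1 region of the transgene was at 20.0 to 55.2 CPM with Neurod1 and at 0.121 to 1.13 CPM in controls. It was also at 23.1 to 182 CPM with Ascl1a, where no neurod1 transgene is labelled, so it does not mark neurod1 transgenes alone. It was uneven among the Neurod1ΔUCE libraries, with 1205 CPM in replicate 1 against 1.65 and 1.72 CPM in replicates 2 and 3, and it was at 4.33 to 7.81 CPM with Neurod1ΔECD. The study describes this feature as the neurod1 region used in the transgene, and left out reads that mapped to both it and neurod1. Its exact boundaries are not given in the sources used here, so its values are not compared between the forms. Summed over 15 matched EEC markers, levels were 20.2 to 189 CPM in control endoderm and 19389 to 36941 CPM in wild-type EECs. The endodermal gene sox17 was at 0 in all EEC libraries, although the other 9 genes of the endoderm and gut list were counted there. Markers listed for skin, cells that a sort for endoderm should not hold, summed to 2718 to 8755 CPM in controls. The same sum was 1138 to 1953 CPM in wild-type EECs and 1504 to 2440 CPM in mutant EECs. The part of skin cells in these sums was not tested.

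tm4sf4 was already well expressed in control endoderm, at 125, 143 and 143 CPM. The Ascl1a libraries had 310, 284 and 237 CPM. All 3 of them lay above all controls, and their mean of 277 ± 36.7 CPM (SD, n = 3) was 2.02-fold that of controls (137 ± 10.0 CPM, SD, n = 3). With full-length Neurod1, the 4 libraries had 705, 264, 419 and 819 CPM. These values were far apart from each other: replicate 2 lay within the range of the Ascl1a libraries and replicate 4 was the highest. The mean was 552 ± 255 CPM (SD, n = 4), 4.03-fold that of controls. Neurod1ΔUCE gave 323, 889 and 1188 CPM, with a mean of 800 ± 439 CPM (SD, n = 3). Neurod1ΔECD gave 429, 788 and 533 CPM, with a mean of 583 ± 185 CPM (SD, n = 3). Every library with a transgene was thus above every control, a joint pattern whose share of all genes was not determined. With TMM, neither deleted form had a lower mean than Neurod1. Without TMM, the mean of Neurod1ΔECD was lower, at 509 CPM against 563 CPM with Neurod1. Summed over 3 of 4 goblet cell markers, which were matched, the levels were 116 to 152 CPM in controls, 206 to 224 CPM with Ascl1a, 97.1 to 215 CPM with Neurod1, 158 to 440 CPM with Neurod1ΔUCE and 157 to 249 CPM with Neurod1ΔECD. As for tm4sf4, all Ascl1a libraries and all libraries of the deleted forms were above all controls in this sum. The 4 markers listed were agr2, muc2.1, gfi1aa and spdef. The study reported gfi1aa as induced by both deleted forms, and the part of single markers in the sum was not determined. The Neurod1 libraries overlapped the controls. Among the Neurod1 libraries the sum was 108, 187, 215 and 97.1 CPM in replicates 1 to 4. It was thus lowest in replicates 1 and 4, which had the highest tm4sf4. Ascl1a replicate 1 had the highest tm4sf4 and the lowest sum of its group, at 206 CPM. In controls and with Neurod1ΔECD the sum ranked the libraries as tm4sf4 did, and with Neurod1ΔUCE both were lowest in replicate 1. The share of all genes with such a pattern was not determined. The part of goblet cells in the tm4sf4 levels was not tested.

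c2cd4a was hardly counted in control endoderm, with 4, 7 and 31 reads. These counts correspond to 0.300, 0.608 and 1.87 CPM, and their exact 95% Poisson intervals ran from 0.0819 to 0.769, from 0.245 to 1.25 and from 1.27 to 2.66 CPM. Such intervals cover counting error only. Control replicate 3, the highest for c2cd4a, was also the highest control for the EEC marker sum, at 189 CPM against 20.2 and 26.6 CPM, and for 3 neuronal markers, at 374 CPM against 36.4 and 2.00 CPM. It was the highest control for muscle (893 CPM against 132 and 8.69 CPM), skin (8755 CPM against 2718 and 5091 CPM), islet and exocrine pancreas markers too. For endoderm and gut, hepatocyte, enterocyte, goblet and red blood cell markers it was not the highest. The part of these cells in its c2cd4a level was not tested. In bulk samples, fewer cells of a type and less RNA per cell cannot be told apart. The Ascl1a libraries had 1.29, 0.634 and 1.19 CPM from 11, 10 and 12 reads, all within the range of controls. Neurod1 gave 5.63, 14.9, 10.2 and 8.11 CPM, all above the controls and the Ascl1a libraries. The mean of 9.71 ± 3.92 CPM (SD, n = 4) was 10.5-fold that of controls (0.927 ± 0.833 CPM, SD, n = 3). Neurod1ΔUCE gave 5.28, 12.0 and 2.45 CPM, and Neurod1ΔECD gave 5.05, 2.46 and 2.06 CPM. All 6 libraries of the deleted forms were above the controls, and 5 of them were below every Neurod1 library. The share of all genes with this joint pattern was not determined.

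**Figure D1:**
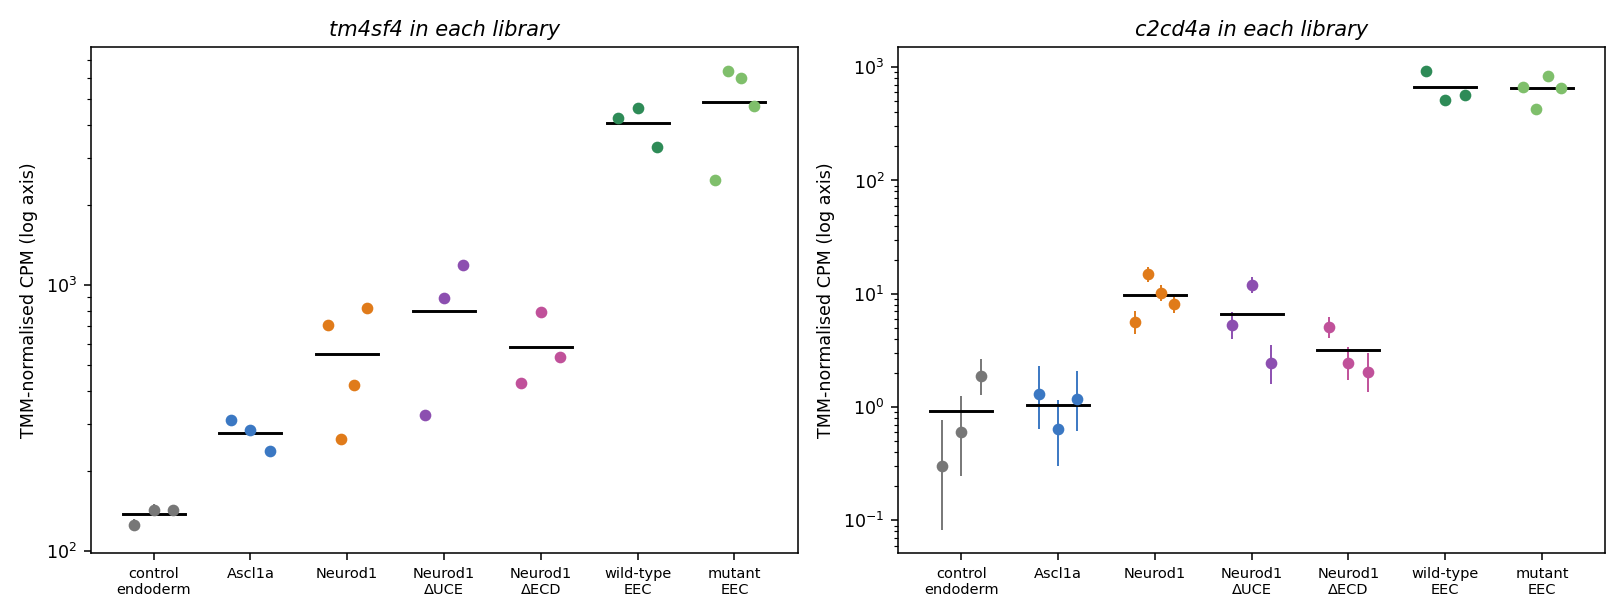
TMM-normalised CPM on a log axis of tm4sf4 (left) and c2cd4a (right) in each of 23 libraries, grouped along the x axis; points are libraries with exact 95% Poisson intervals, which are smaller than most points, and black lines are group means. tm4sf4 was at 125 to 143 CPM in controls and at 237 to 310 CPM with Ascl1a, while c2cd4a was at 0.634 to 1.29 CPM with Ascl1a, within the range of controls.

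In the comparison of Neurod1 with controls, 0.0423% of 18911 genes passed the threshold as higher (edgeR's quasi-likelihood test, FDR of at most 0.1), and in 4.34% of genes all 4 Neurod1 libraries were above all controls, as they were for both tm4sf4 and c2cd4a. The log2 fold change was 1.98 for tm4sf4 and 3.34 for c2cd4a. Against Ascl1a, where 0.037% of genes passed as higher, the log2 fold change of Neurod1 was 0.97 for tm4sf4 and 3.21 for c2cd4a. All Neurod1 libraries were above all Ascl1a libraries for c2cd4a, which holds for 4.88% of genes, and the groups overlapped for tm4sf4.

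No change of either gene with Ascl1a passed the test across all genes, which called 0.00529% of genes higher and 0.0106% lower than in controls. For tm4sf4 the log2 fold change was 1.02 (SE 0.45, 95% interval 0.07 to 1.97, FDR 0.802), with higher values in 3 of 3 libraries, a pattern found in 6.66% of genes. For c2cd4a it was 0.14 (95% interval -1.42 to 1.69, FDR 0.985), an interval that leaves room for a change in either direction. These tests and those of the deleted forms against controls share the 3 control libraries that helped to choose the genes.

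Neurod1ΔUCE gave a log2 fold change of 2.5 for tm4sf4 over controls (SE 0.47, 95% interval 1.5 to 3.49, edgeR FDR 0.110), which missed the threshold. Of all genes, 0.0582% passed it as higher. All 3 libraries were above all controls, as in 5.03% of genes. The call for tm4sf4 turned on Neurod1ΔUCE replicate 1, the library with 323 CPM of tm4sf4 and 1205 CPM of the neurod1 transgene feature: without it, the log2 fold change was 2.87 with an FDR of 0.0136 (edgeR). DESeq2, the tool of the study, which called 0.745% of 19608 genes higher in this comparison, gave 2.5 with an FDR of 0.000151, and over all alternatives the FDR ran from 0.000151 to 0.518. For c2cd4a the log2 fold change with Neurod1ΔUCE was 2.74 (SE 0.75, 95% interval 1.16 to 4.32, edgeR FDR 0.359). DESeq2 gave an FDR of 0.0181, within a range of 0.0181 to 1.00 over the alternatives.

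Neurod1ΔECD gave a log2 fold change of 2.00 for tm4sf4 over controls (SE 0.46, 95% interval 1.03 to 2.98, edgeR FDR 0.419) and of 1.68 for c2cd4a (SE 0.72, 95% interval 0.15 to 3.22, edgeR FDR 0.750). Both genes were above all controls in each of the 3 libraries, as in 11.4% of genes, and 0.0423% of genes passed as higher. DESeq2, which called 0.278% of 20153 genes higher, gave an FDR of 0.0161 for tm4sf4, and the range over the alternatives was 0.0161 to 0.992. For c2cd4a, control replicate 3 set much of the fold: without it the log2 fold change was 2.70 with Neurod1ΔECD (FDR 0.917), 3.75 with Neurod1ΔUCE (FDR 0.357), 1.15 with Ascl1a (FDR 0.991), all by edgeR, and 4.36 with Neurod1.

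The deleted forms were next set against Ascl1a, which uses none of the libraries of the comparison between Neurod1 and controls. The Ascl1a libraries did help to choose c2cd4a. Both genes were higher in all 6 libraries of the deleted forms than in all 3 Ascl1a libraries, as in 1.76% of genes, and 0.0687% of genes passed as higher and 0.0106% as lower by edgeR. The mean over the 6 libraries was 692 ± 324 CPM (SD) for tm4sf4, 2.5-fold that of Ascl1a, and 4.89 ± 3.77 CPM (SD) for c2cd4a, 4.70-fold that of Ascl1a. In the test across all genes, the log2 fold change was 1.23 for tm4sf4 (SE 0.41, 95% interval 0.37 to 2.09, edgeR FDR 0.642) and 2.08 for c2cd4a (SE 0.68, 95% interval 0.63 to 3.52, edgeR FDR 0.639). For c2cd4a DESeq2, which called 0.734% of 19608 genes higher, gave an FDR of 0.0893, the lowest of a range up to 1.00. Taken as single values of log2(CPM + 1), the differences were 1.19 for tm4sf4 and 1.34 for c2cd4a, each with p = 0.0238 in a two-sided exact permutation test over 84 arrangements. After adjustment over the 8 exact tests made, both had p = 0.0952 and failed a threshold of 0.05.

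The question of the deletions is whether the forms without the UCE or ECD differ from full-length Neurod1. For tm4sf4 no lower level was detected. The study stated that each gene of its endocrine set, which lists c2cd4a and a gene written tmsf4a, was induced less by the deleted forms. Mean tm4sf4 here was 800 CPM with Neurod1ΔUCE and 583 CPM with Neurod1ΔECD, against 552 CPM with Neurod1. If tmsf4a is tm4sf4, these means do not show a weaker induction. For Neurod1ΔECD this depended on TMM. In CPM without TMM the means were 727 with Neurod1ΔUCE, 509 with Neurod1ΔECD and 563 with Neurod1. The Neurod1 libraries helped to choose tm4sf4, so a comparison with them is not independent of that choice. The log2 fold change against Neurod1 was 0.51 for Neurod1ΔUCE (95% interval -0.36 to 1.39), 0.02 for Neurod1ΔECD (95% interval -0.86 to 0.90) and 0.27 for both together (95% interval -0.48 to 1.01), with an edgeR FDR of at least 0.996 in each. The lower end of the last interval still allows a fall of 0.48 on the log2 scale.

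For c2cd4a the deleted forms had lower means than Neurod1. The log2 fold change was -0.60 for Neurod1ΔUCE (95% interval -1.98 to 0.78, edgeR FDR 1.00) and -1.66 for Neurod1ΔECD (95% interval -3.10 to -0.23, edgeR FDR 0.910). All 3 Neurod1ΔECD libraries were below all 4 Neurod1 libraries, as in 3.10% of genes, while Neurod1ΔUCE replicate 2, at 12.0 CPM, was above 3 of the 4. Both forms together gave -1.13 (95% interval -2.27 to 0.0039, edgeR FDR 1.00), and the two-sided exact permutation test of log2(CPM + 1) gave a difference of -0.99 with p = 0.0571, or 0.152 adjusted over 8 tests. That test was decided by single libraries: without Neurod1ΔUCE replicate 2 the difference was -1.26 with an exact p of 0.0159, and without Neurod1 replicate 1 it was -1.20 with an exact p of 0.0476. The Neurod1 libraries helped to choose c2cd4a, so a lower value in other libraries is not independent of that choice. Neurod1ΔUCE replicate 2 also had the highest sum of 3 islet markers of all endodermal libraries, at 718 CPM. Among these libraries it was highest as well for the EEC marker sum, at 704 CPM, and for red blood cell markers, at 3353 CPM. Wild-type EECs had 334 to 598 CPM of the islet sum, so this sum does not mark islet cells alone. The part of any of these cells in the c2cd4a level of this library was not tested.

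edgeR called 0 of 18911 genes (0.0%) in each comparison of a deleted form with Neurod1. At an unadjusted p under 0.05 there were 250 higher and 245 lower genes for Neurod1ΔUCE, 453 and 367 for Neurod1ΔECD, and 307 and 440 for both together. DESeq2 called 10 higher and 7 lower, 20 and 1, and 17 and 8. Between Neurod1ΔUCE and Neurod1ΔECD, edgeR also called 0 genes (0.0%), with 280 and 317 at an unadjusted p under 0.05, and DESeq2 called 0 higher and 1 lower. The log2 fold change of Neurod1ΔUCE over Neurod1ΔECD was 0.49 for tm4sf4 (95% interval -0.45 to 1.44, edgeR FDR 0.999) and 1.06 for c2cd4a (95% interval -0.42 to 2.54, edgeR FDR 0.999), so differences of over 1 on the log2 scale were not distinguishable from none at this spread.

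**Figure D2:**
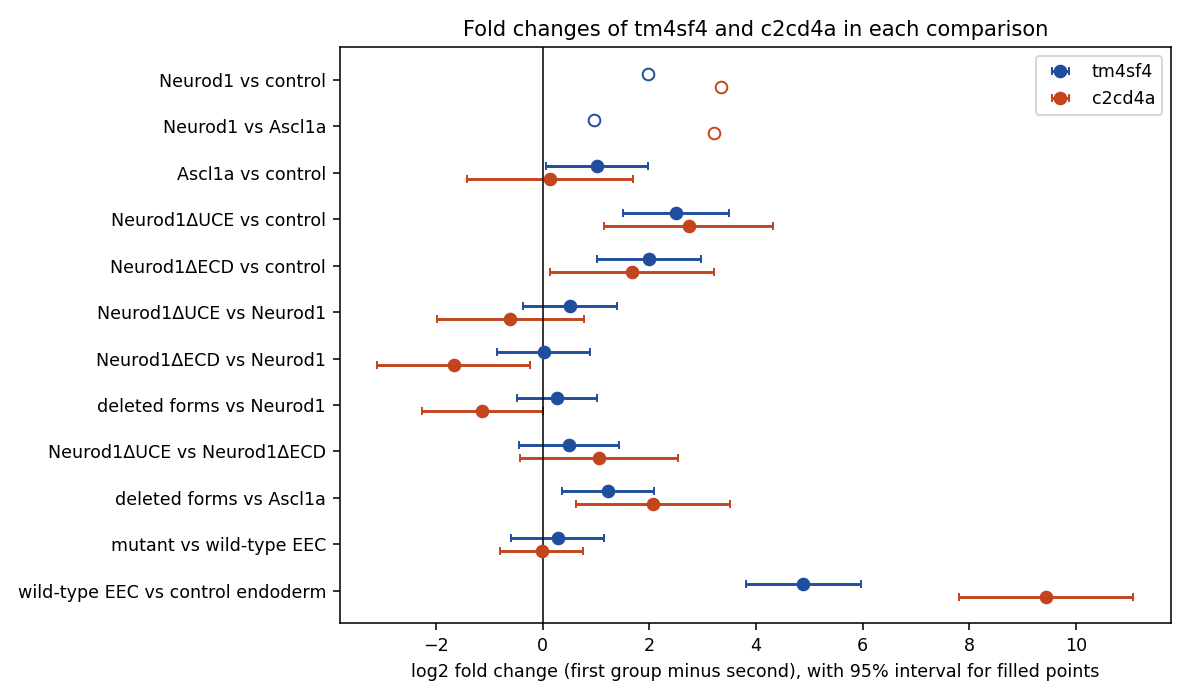
log2 fold change (first group minus second, x axis) of tm4sf4 (blue) and c2cd4a (orange) in 12 comparisons; filled points carry 95% intervals from edgeR, and open points are the comparisons that chose the genes and are shown without interval or test. For Neurod1ΔECD against Neurod1, tm4sf4 was at 0.02 and c2cd4a at -1.66.

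Within a group, the 2 genes did not follow each other. Among the Neurod1 libraries, replicate 2 had the lowest tm4sf4 (264 CPM) and the highest c2cd4a (14.9 CPM). Replicates 1 and 4 had the higher tm4sf4 values, at 705 and 819 CPM, and the lower c2cd4a values, at 5.63 and 8.11 CPM. Likewise, Neurod1ΔUCE replicate 3 had the highest tm4sf4 of all endodermal libraries (1188 CPM) with the lowest c2cd4a of its group (2.45 CPM). With 3 or 4 libraries in a group, this is a description.

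The log2 ratio of c2cd4a to tm4sf4, with 1 CPM added to each, was -6.73, -4.06, -5.22 and -6.49 in the Neurod1 libraries. It was -5.69, -6.09 and -8.43 with Neurod1ΔUCE and -6.15, -7.84 and -7.45 with Neurod1ΔECD. These ranges overlapped. This ratio was 1.31 lower on the log2 scale in the deleted forms, with p = 0.124 (two-sided exact permutation test over 210 arrangements), or 0.248 adjusted.

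The EEC marker sum did not rank the Neurod1 libraries as either gene did: it was 404, 236, 659 and 316 CPM in replicates 1 to 4. Within each of the other 4 endodermal groups it ranked the libraries as c2cd4a did. In replicates 1 to 3 it was 20.2, 26.6 and 189 CPM in controls, 164, 39.8 and 144 CPM with Ascl1a, 267, 704 and 89.2 CPM with Neurod1ΔUCE, and 200.0, 139 and 65.2 CPM with Neurod1ΔECD. Summed over the 3 islet markers, the levels in the Neurod1 libraries were 37.8, 255, 212 and 23.8 CPM, highest in the 2 libraries with the highest c2cd4a. The islet sum was 129, 718 and 60.6 CPM with Neurod1ΔUCE and 143, 126 and 12.7 CPM with Neurod1ΔECD, in the order of c2cd4a within each of these groups. In controls the islet sum was 44.2, 50.6 and 86.4 CPM, again in the order of c2cd4a. With Ascl1a it was 59.4, 50.1 and 145 CPM, highest in replicate 3, while c2cd4a was highest in replicate 1. For both sums, the share of all genes that rank the libraries in this way was not determined. The EEC sum includes scg3 and pax6b, which resembled c2cd4a over the endodermal libraries (Pearson's r of log2(CPM + 1) of 0.888 and 0.829). They build in part of the agreement of the EEC sum with c2cd4a. The other markers of the sums are not listed here, and any that resemble c2cd4a would add to this. The part of EECs or islet cells in the c2cd4a values was not tested.

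**Figure D3:**
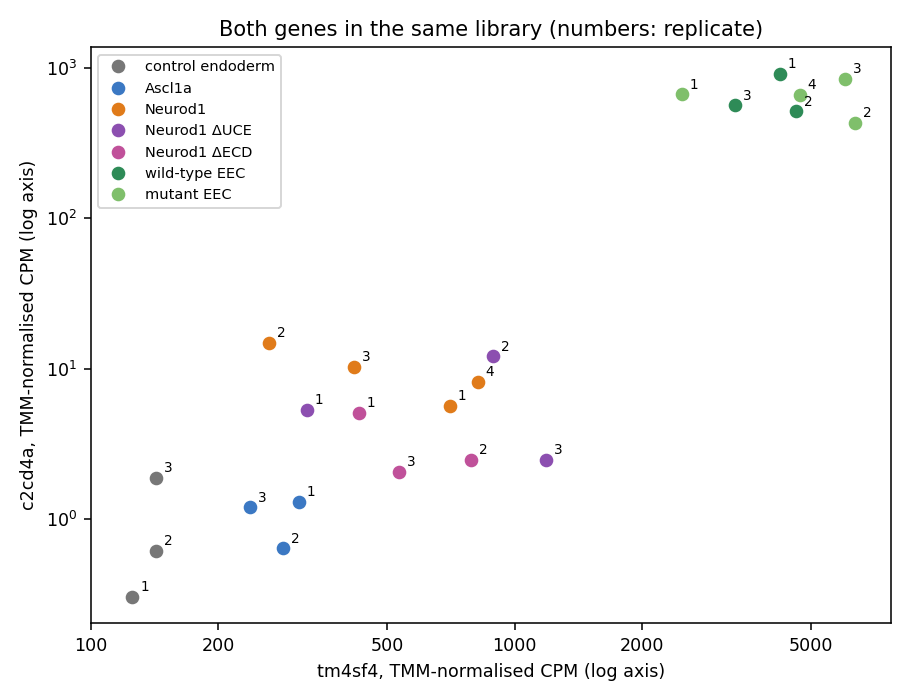
tm4sf4 (x axis) against c2cd4a (y axis), both in TMM-normalised CPM on log axes; each point is a library, coloured by group and labelled with its replicate number. The 7 EEC libraries stand apart at the upper right, and among the Neurod1 libraries the lowest tm4sf4 value (264 CPM) goes with the highest c2cd4a value (14.9 CPM).

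In wild-type EECs tm4sf4 was at 4230, 4623 and 3309 CPM, 29.6-fold the mean of control endoderm. c2cd4a was at 921, 515 and 565 CPM, 720-fold the mean of control endoderm. For both genes all EEC libraries were above all controls, as in 20.7% of genes, and 16.1% of 20397 genes passed as higher and 22.0% as lower. The log2 fold change was 4.89 for tm4sf4 (SE 0.52, 95% interval 3.81 to 5.97, edgeR FDR 1.32e-06) and 9.44 for c2cd4a (SE 0.79, 95% interval 7.81 to 11.1, edgeR FDR 2.30e-07), both higher in 3 of 3 libraries. The median over all genes was -0.19 in this fit, and from -0.29 to -0.06 over the alternatives. Cell type, stage, reporter, dissociation and heat shock differ together between these groups and cannot be told apart. The 3 control libraries also helped to choose the genes, so this test is not independent of that choice. Wild-type EEC replicate 2 had hepatocyte markers at a sum of 3334 CPM against 19.4 and 16.1 CPM in the other two, and without it the log2 fold changes were 4.78 and 9.60. For c2cd4a control replicate 3 again set much of the fold: without it the log2 fold change was 10.5 (edgeR FDR 7.10e-07).

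Set against the mean of wild-type EECs, tm4sf4 reached 3.38% in control endoderm, 6.84% with Ascl1a, 13.6% with Neurod1, 14.4% with Neurod1ΔECD and 19.7% with Neurod1ΔUCE. In this order each group overlapped the next, except control and Ascl1a, and Neurod1ΔUCE and wild-type EECs. c2cd4a reached 0.139% in control endoderm, 0.156% with Ascl1a, 0.478% with Neurod1ΔECD, 0.988% with Neurod1ΔUCE and 1.46% with Neurod1. Here the groups that did not overlap the next were Ascl1a, below Neurod1ΔECD, and Neurod1, below the EECs. All Ascl1a libraries were above all controls in 6.66% of genes. For the other separated pairs the share of all genes was not determined, so their separation is a description only.

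Removing the UCE from endogenous Neurod1 did not detectably change the level of either gene among sorted EECs. The study reported fewer pax6b:GFP+ cells in this mutant, and levels in sorted cells cannot show a change in cell number. The neurod1ΔUCE-/- libraries had 2478, 6356, 6019 and 4703 CPM of tm4sf4 (mean 4889 ± 1758, SD, n = 4, against 4054 ± 675 in 3 wild-type libraries), a wider range that enclosed the wild type. They had 669, 430, 844 and 661 CPM of c2cd4a (mean 651 ± 170, SD, n = 4, against 667 ± 222 in 3 wild-type libraries). The log2 fold change was 0.28 for tm4sf4 (95% interval -0.59 to 1.16) and -0.02 for c2cd4a (95% interval -0.79 to 0.75), with an edgeR FDR of 1.00 for both. edgeR called 0.00619% of 16154 genes higher and 0.0124% lower. Two-sided exact permutation tests gave p = 0.571 for tm4sf4 and p = 0.943 for c2cd4a, where 0.0286 is the smallest p that 35 arrangements allow. The intervals leave room for a fall or a rise, from -0.59 to 1.16 on the log2 scale in tm4sf4 and from -0.79 to 0.75 in c2cd4a. The log2 ratio of c2cd4a to tm4sf4, with 1 CPM added to each, ran from -3.16 to -2.20 in the wild type and from -3.88 to -1.89 in the mutant.

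Their closest relatives by name were then examined. Of 5 measured features of the tm4sf family, 3 were higher in wild-type EECs than in control endoderm, as was c2cd4c, the 1 relative of c2cd4a, beside 16.1% of all genes tested. tm4sf5 went from 0.224 ± 0.268 to 56.1 ± 31.8 CPM (SD, n = 3 each), with a log2 fold change of 8.01 (edgeR FDR 1.61e-05). tm4sf21a, already at 332 CPM in controls, reached 1124 CPM (log2 fold change 1.76, edgeR FDR 0.00132). c2cd4c went from 1.5 ± 1.42 to 24.1 ± 11.7 CPM (SD, n = 3 each), with a log2 fold change of 3.99 (edgeR FDR 0.0231). tm4sf21b is listed under 2 identifiers, of which ENSDARG00000105644 went from 10.9 to 125 CPM (log2 fold change 3.51, edgeR FDR 0.000116), while ENSDARG00000056762 stayed under 1 CPM in all groups on average. Reads of such copies may have been split or lost in counting. None of the 6 relatives passed the edgeR test in a comparison of the endodermal groups or between mutant and wild-type EECs, and none did by DESeq2, with at most 1 at an unadjusted edgeR p under 0.05 in any of these comparisons. There edgeR called at most 0.0687% of all genes in a direction and DESeq2 at most 0.745%. The lack of calls among 6 genes is thus no result about them. Over the 5 tm4sf relatives the median log2 fold change over controls was 0.50 with Ascl1a, 0.56 with Neurod1, 0.97 with Neurod1ΔUCE and 0.62 with Neurod1ΔECD, while the median over all genes was between -0.03 and 0.02. It was 0.48 for the deleted forms over Ascl1a, 0.07 for Neurod1 over Ascl1a and 0.09 for the deleted forms over Neurod1. These medians rest partly on features with few reads. tm4sf5, tm4sf18 and ENSDARG00000056762 had means of at most 2.48 CPM in every endodermal group. The value of 0.56 is that of tm4sf5 (SE 1.11), at 0.224 CPM in controls and 0.333 CPM with Neurod1. The better counted ENSDARG00000105644 had means of 10.9 CPM in controls and 10.0 CPM with Ascl1a. Its means were 24.1 CPM with Neurod1, 22.2 CPM with Neurod1ΔUCE, where libraries overlapped the controls, and 31.8 CPM with Neurod1ΔECD. tm4sf21a had 332 CPM in controls, 476 CPM with Ascl1a, 315 CPM with Neurod1, 508 CPM with Neurod1ΔUCE and 544 CPM with Neurod1ΔECD.

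**Figure D4:**
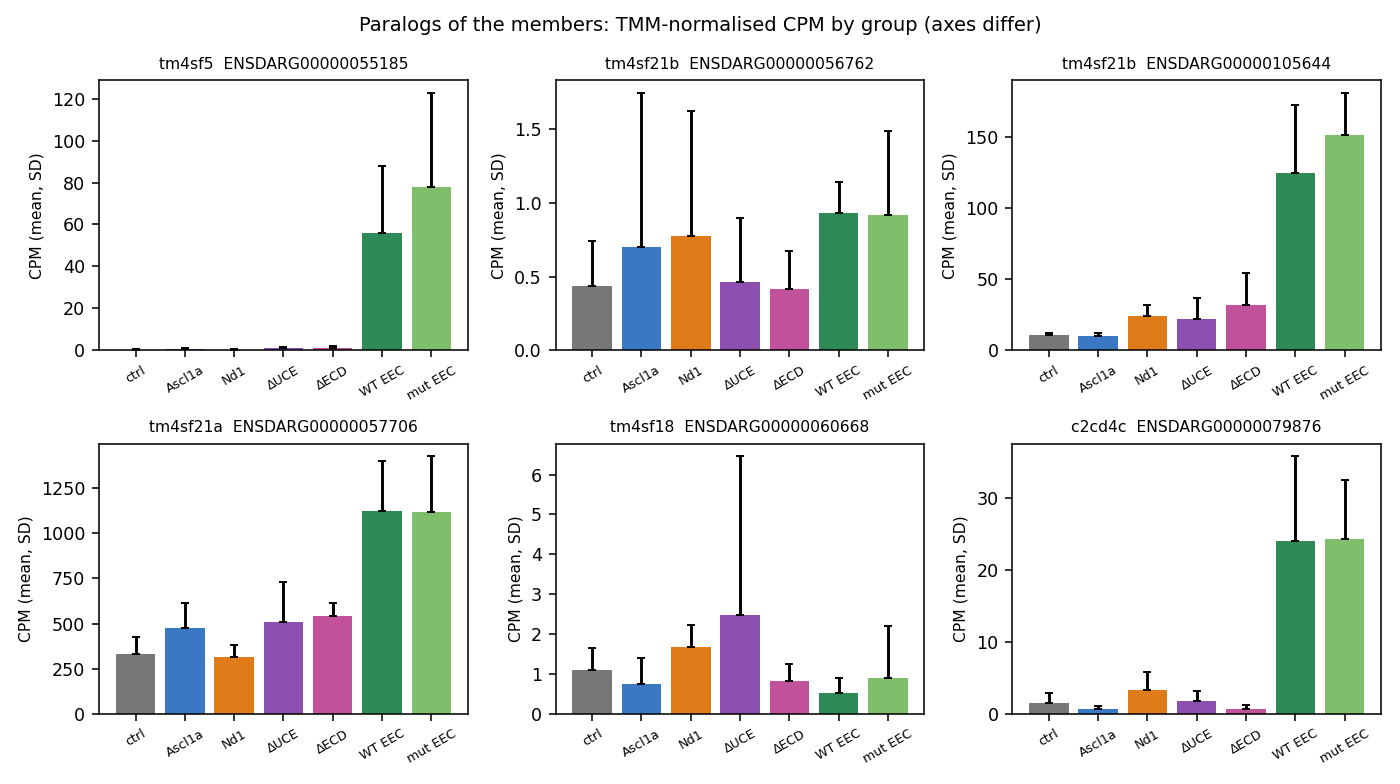
Mean TMM-normalised CPM (bars, starting at 0) with SD (upward lines) of 6 relatives of the genes in 7 groups, with a separate y axis for each. tm4sf5, c2cd4c, tm4sf21a and the tm4sf21b identifier ENSDARG00000105644 were higher in wild-type EECs than in control endoderm, and tm4sf18 was at 0.528 CPM against 1.1 CPM.

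The genes beside them on the chromosome were examined as well. By gene order in RefSeq (assembly GRCz12tu), the nearest measured neighbours are commd2, wwtr1, tm4sf18 and cp for tm4sf4, and tpm1, tln2b, ice2 and anxa2a for c2cd4a. None of these 8 passed in a comparison of the endodermal groups by edgeR or DESeq2, and at most 1 in any of them had an unadjusted edgeR p under 0.05. In these comparisons edgeR called at most 0.0687% of all genes in a direction and DESeq2 at most 0.745%. The lack of calls among 8 genes is thus no result about them. In wild-type EECs against control endoderm, tpm1 (log2 fold change 1.73, edgeR FDR 0.0181) and tln2b (3.17, edgeR FDR 0.0845) were higher and wwtr1, a coactivator of the Hippo pathway, was lower (-3.79, edgeR FDR 0.0228), in a comparison that called 16.1% of all genes higher and 22.0% lower.

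A list of 8 endocrine transcription factors (pax4, rfx6, insm1a, insm1b, pax6b, nkx2.2a, sox4b and endogenous neurod1) was read beside the 2 genes. The study named most of them as induced by Neurod1 over controls and not by Ascl1a. Comparisons that use the Neurod1, Ascl1a or control libraries are thus not independent of that choice. In wild-type EECs 7 of 8 were higher than in control endoderm, beside 16.1% of all genes, with a median log2 fold change of 7.29 (-0.19 over all genes), and sox4b was not called (-0.69, edgeR FDR 0.343). Against Ascl1a, the deleted forms had a median of 1.85 over these genes (0.02 over all genes), and 1 of 8 was called by edgeR (4 by DESeq2, which called 0.734% of all genes higher). The edgeR call was pax4, at 0 in all control and Ascl1a libraries, with means of 15.9 CPM with Neurod1ΔUCE, 17.7 CPM with Neurod1ΔECD and 41.8 CPM with Neurod1. Between mutant and wild-type EECs edgeR and DESeq2 called 0 of 8. Of all genes, edgeR called 0.00619% higher and 0.0124% lower, and DESeq2 called 105 of 18959 higher and 84 lower. At an unadjusted edgeR p under 0.05 there were 2 of the 8, beside 2.24% of all genes as higher and 1.45% as lower. These 2 were pax4 (log2 fold change 0.87) and sox4b (-1.81). The study, which used further wild-type libraries, reported pax4 as up-regulated and sox4b as down-regulated in this mutant. Against Neurod1, both deleted forms together had a median of -1.40 with 0 of 8 called by edgeR or DESeq2 and 5 at an unadjusted edgeR p under 0.05 (1.62% of all genes as higher and 2.33% as lower), beside 0.27 for tm4sf4 and -1.13 for c2cd4a in the same comparison.

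The 5 genes most like each member were found by Pearson's r of log2(CPM + 1) over the 16 endodermal libraries, among 18910 other genes. These values share library and group, and are given as a description. For tm4sf4 they were bckdk (r = 0.946), a kinase of branched-chain amino acid breakdown, slc3a2a (0.926), the heavy chain of amino acid transporters, marcksb (0.923), a membrane-bound substrate of protein kinase C, cdc25b (0.918), a cell cycle phosphatase, and anxa4 (0.917), an annexin. bckdk had means of 80.3 CPM in controls, 139 with Ascl1a, 204 with Neurod1, 419 with Neurod1ΔUCE and 294 with Neurod1ΔECD, the same order of groups as tm4sf4. In wild-type EECs anxa4 was at 8330 CPM against 263 CPM in control endoderm, whereas cdc25b was at 11.5 CPM against 98.4 CPM.

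For c2cd4a the most similar genes were abcc8 (r = 0.907), the sulfonylurea receptor of the KATP channel, scg3 (0.888), a secretogranin of dense-core granules, grnas (0.832), pax6b (0.829), the transcription factor whose reporter marks the sorted EECs, and ro60 (0.828), which binds Y RNAs. scg3 had means of 6.93 CPM in controls, 10.8 with Ascl1a, 132 with Neurod1, 71.5 with Neurod1ΔUCE and 27.3 with Neurod1ΔECD, the same order as c2cd4a, and 2689 CPM in wild-type EECs. abcc8 went from 0.569 CPM in controls to 3.69 CPM with Neurod1 and 204 CPM in wild-type EECs. Between the 2 genes themselves r was 0.514, at which c2cd4a was in place 1395 of the genes most like tm4sf4, and tm4sf4 in place 552 of those most like c2cd4a.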

How the data were processed

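RNA was amplified with Smart-seq2 from sorted, pooled cells. The authors mapped the reads with STAR 2.5.4b to GRCz11 with an Ensembl annotation and deposited raw read counts per gene, with no normalisation. The strand setting of counting is not given in the sources used here, so genes that overlap on opposite strands cannot be told apart. The endodermal counts hold 31902 features, 1 more than the EEC counts, for the neurod1 region carried by the transgene. Names came from a table of gene names and the study's supplementary tables (29194 features).

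Counts were analysed with edgeR 4.0.16 in R 4.3.3 (TMM, filterByExpr, quasi-likelihood test, Benjamini-Hochberg, FDR of at most 0.1), in 1 fit of 16 endodermal libraries (18911 genes), 1 of 7 EEC libraries (16154 genes) and 1 of all 23 libraries (20397 genes). The combined value of the deleted forms is the mean of their coefficients. Exact permutation tests over libraries used log2(CPM + 1) (scipy 1.17.1). Per library, 3 counts corresponded to 0.163 to 0.353 CPM. The tests were tried on simulated data.

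The genes, lists and comparisons were chosen with earlier results of these data known. Named genes were both genes, relatives by symbol, up to 2 measured neighbours on each side, 8 endocrine transcription factors and the 5 most similar genes by correlation. Nothing in the labels says that same-numbered libraries come from the same animals. The labels only number the replicates, and the study describes the EEC samples as independent preparations. The p-values set differences between groups against the spread between libraries. Exact tests of the deleted forms pool the libraries of both constructs. Alternatives were DESeq2 1.42.0, RLE, no filter, limma voom with sample weights (limma 3.58.1), a replicate block, only the groups compared, an FDR of 0.05, a pseudocount of 0.1, CPM without TMM and leaving out single libraries. CPM without TMM for group levels was added after seeing the data. The study's 3 further wild-type EEC libraries were not analysed here.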

Additional observations from a re-analysis of the deposited data

Results flagged for a closer look

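Among the Neurod1 libraries, replicate 3 stood apart for commd2, a neighbour of tm4sf4, at 33.8 CPM. This was found among 32 groups of 4 libraries examined for a lone value, and chance gives about 1 in 20.

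The feature for the neurod1 region of the transgene was counted in the Ascl1a libraries too, where no neurod1 transgene is labelled, at 23.1 CPM or more, above the 0.121 to 1.13 CPM of controls. It was highest, at 182 CPM, in Ascl1a replicate 2, which also had the highest count of the ascl1a reading frame (269 CPM). tm4sf4 and c2cd4a in that library were at 284 and 0.634 CPM, not the highest of the Ascl1a group.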

How the results depend on the processing

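Of 433 values under other settings, 395 were counted as the same. For tests this meant the same direction and side of the threshold, and the FDR of 0.05 was read from the main fit. For fold changes without a test it meant the same direction and a shift below the SD. Group levels had to shift by less than the SD, and lists of similar genes had to share most of the 5 genes. tm4sf4 with Neurod1ΔUCE over controls passed with DESeq2 (2.5) and without a filter on low counts (2.5, FDR 0.0508). With DESeq2, c2cd4a also passed for Neurod1ΔUCE over controls (2.78) and for the deleted forms over Ascl1a (2.12), and tm4sf4 for Neurod1ΔECD over controls (2.00). With voom the sign turned for tm4sf4 between Neurod1ΔECD and Neurod1 (-0.14) and for c2cd4a between the deleted forms (-0.0036). Without TMM, the exact test of c2cd4a between deleted forms and Neurod1 gave -1.11 (p = 0.0429). The cause was not tested. The 5 most similar genes shared 2 with Spearman and 1 over all 23 libraries for tm4sf4, and 3 and 1 for c2cd4a.

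With single libraries left out, the log2 fold change of tm4sf4 ran from 2.1 to 2.87 for Neurod1ΔUCE over controls and from -0.24 to 0.29 for Neurod1ΔECD over Neurod1. For c2cd4a it ran from 2.92 to 4.36 for Neurod1 over controls, from -0.30 to 1.15 for Ascl1a over controls (below 0 at -0.10, -0.30 and -0.07) and from -0.17 to 0.28 between mutant and wild-type EECs. tm4sf4 for Neurod1ΔECD over Neurod1 was below 0 at -0.21 (without Neurod1 replicate 2), -0.09 (without Neurod1 replicate 3) and -0.24 (without Neurod1ΔECD replicate 2), and c2cd4a between mutant and wild type was above 0 at 0.28 (without wild-type replicate 1) and 0.15 (without mutant replicate 2). The exact tests of deleted forms against Ascl1a ran from 1.00 to 1.38 for tm4sf4 (p from 0.0357 to 0.107) and from 1.07 to 1.49 for c2cd4a (p from 0.0179 to 0.107), under 0.05 in 3 and 4 of 9 cases, and with 2 Ascl1a libraries fewer arrangements are possible. Those of c2cd4a ran from -1.26 to -0.78 against Neurod1 and from -0.19 to 0.23 between mutant and wild type (0.23 and 0.16 above 0), and the ratio from -0.54 to 0.12.

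Same-numbered libraries did not deviate together throughout (correlations from -0.448 to 0.553 in endoderm and from -0.16 to 0.038 in EECs), and 7 of 15 and 1 of 6 libraries correlated best with their own number. With the replicate block no call of either gene changed: tm4sf4 and c2cd4a were at 2.47 and 2.72 for Neurod1ΔUCE over controls and at 4.90 and 9.45 for wild-type EECs over control endoderm.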
